A study of Homo sapiens with 12 samples.

Results

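TXNIP, the other arrestin-domain genes ARRDC1, ARRDC2, ARRDC3 and ARRDC4, and the transcription factors MLXIP, MLX and MLXIPL were followed across glucose and acetate conditions in LN229, an established human glioblastoma line. These 8 genes were chosen by name, with 1 transcript standing for each, out of 22257 genes in the count tables. RNA was sequenced from 12 libraries in 3 groups of 4. All cells were grown to 80% confluence in multi-well dishes and then held for 24 hours in RPMI medium with 10% dialyzed serum, from which small molecules such as glucose and acetate have been removed. The groups were 10 mM glucose without acetate (10 mM glc), 1 mM glucose with 5 mM acetate (1 mM glc + Acetate) and 1 mM glucose without acetate (1 mM glc). Every library therefore came from the same line, medium, serum and time, and the line carries no added construct in the labels. The labels do not say that the 4 replicates of a group were separate cultures, so each p measures only the spread between these libraries, which may be technical.

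MLXIP encodes MondoA and MLXIPL encodes ChREBP, related glucose-responsive transcription factors that bind DNA as dimers with MLX when glucose-6-phosphate builds up. The best known targets of MondoA are TXNIP and ARRDC4, members of the alpha-arrestins, adaptor proteins that draw membrane proteins towards NEDD4-family ubiquitin ligases and into endosomes. TXNIP also binds thioredoxin and promotes removal of glucose transporters from the cell surface, so it is known as a brake on glucose uptake.

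The sequences just upstream of TXNIP and ARRDC4 are shown because these genes had the largest increases among the 8 at 10 mM glucose. Each covers 250 bases before to 50 bases after a promoter start site in RefSeq (GRCh38.p14), read 5′ to 3′ on the gene's strand. The site used was the one nearest to the start of the counted transcript. Positions below are counted from these sites, which differ from the annotated gene starts. The annotated start minus the site was 21 bases for TXNIP, −5 for ARRDC4, −32 for ARRDC1 and −2 for ARRDC2. For ARRDC3, MLX, MLXIP and MLXIPL it was 42, −28, −34 and 18 bases. Capitals mark CCAAT boxes on either strand (CCAAT or ATTGG), the E-box CACGTG, and, in TXNIP, a pair of E-box-like hexamers with 5 bases between them.

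TXNIP (chr1:145996530-145996829, minus strand): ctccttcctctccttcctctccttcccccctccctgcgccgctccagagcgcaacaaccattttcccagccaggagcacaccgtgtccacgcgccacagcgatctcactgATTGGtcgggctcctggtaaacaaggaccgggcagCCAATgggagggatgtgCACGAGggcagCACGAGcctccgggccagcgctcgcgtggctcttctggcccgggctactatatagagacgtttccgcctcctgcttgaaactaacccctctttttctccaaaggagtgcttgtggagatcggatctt
ARRDC4 (chr15:97960453-97960752, plus strand): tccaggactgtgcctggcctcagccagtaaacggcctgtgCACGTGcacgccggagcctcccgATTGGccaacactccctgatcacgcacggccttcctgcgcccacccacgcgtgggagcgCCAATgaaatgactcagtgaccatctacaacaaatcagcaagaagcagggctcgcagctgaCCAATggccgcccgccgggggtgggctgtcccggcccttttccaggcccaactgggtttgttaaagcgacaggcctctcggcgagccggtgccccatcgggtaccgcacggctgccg

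The pair of hexamers in TXNIP, CACGAGggcagCACGAG, began 88 bases before the start (position −88), behind CCAAT boxes at −140 and −105. Its pattern on either strand, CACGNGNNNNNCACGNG, was chosen with the TXNIP element known, and 0.057% of 35116 human promoters of the same length held it. ARRDC4 held the E-box CACGTG at −210, a motif found in 7.26% of promoters, and CCAAT boxes at −187, −128 and −67. CCAAT was in 34.6% of promoters, with 2 or more in 10.8% and 3 or more in 3.26%. MLX held a CACGTG at −50 and a CCAAT box at −66. ARRDC1, ARRDC2, ARRDC3 and MLXIP had 1 CCAAT box each, at −80, −93, −241 and −76, and ARRDC2 also had a TATAAA at −30, a motif in 11.5% of promoters. In these windows none of the 8 held 2 CACGTG motifs 5 bases apart, which were in 0.0057% of all promoters. None matched the carbohydrate response element consensus as searched, a pattern of 17 bases found in 0.0883% of all promoters. The TXNIP pair above was searched as a separate pattern. Lack of a match to the consensus therefore does not show that TXNIP lacks a carbohydrate response element. MLXIPL held none of the motifs searched. A match here is a match of letters and not a binding site.

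Libraries held between 24.4 M and 27.2 M counts (M, mega) with 1 transcript per gene. Levels below are CPM, that is counts per megacount, after TMM scaling between libraries. The glial and glioma markers VIM, NES, CD44, SOX2, OLIG2, S100B and FABP7 averaged at least 1 CPM in every group, while SOX9 was under 1 CPM in every group and GFAP, the defining astrocyte marker, was under 1 CPM except with acetate. The 9 glial markers together summed to 5871 to 5992 CPM at 10 mM glc, 5943 to 6462 with acetate and 6315 to 7674 at 1 mM glc. Of 8 blood and endothelial markers 7 averaged under 1 CPM in each group, and the list summed to 19.2 to 23.3 CPM at 10 mM glc, 63.0 to 70.3 with acetate and 54.9 to 65.3 at 1 mM glc. The exception in every group was CD68, which therefore made up most of each sum. Of 8 neuron markers 3 (RBFOX3, SLC17A7 and STMN2) were under 1 CPM throughout, with list sums of 299 to 345 CPM at 10 mM glc, 333 to 366 with acetate and 374 to 454 at 1 mM glc. The part of these cell type markers in the results was not tested. The libraries 1 mM glc replicate 3 and 1 mM glc + Acetate replicate 1 stood apart from the others of their own group on the second principal component. The acetate replicate was at −14.9, against 10.3 to 17.1 in the other 3 acetate libraries, and the 1 mM replicate at −31.4, against −4.92 to 12.9 in the other 3 at 1 mM glc. Across genes, which are not independent replicates, their deviation from the mean of all libraries had Spearman correlations of −0.486 and −0.481 with transcript length, against −0.178 to 0.228 in the other 10 libraries.

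TXNIP was the member with the largest difference between glucose conditions. It had 117, 119, 122 and 127 CPM in the 4 libraries at 10 mM glc, 4.92, 5.69, 5.94 and 5.48 CPM in the acetate libraries, and 5.94, 6.86, 6.28 and 7.42 CPM at 1 mM glc. All 4 libraries at 10 mM glc stood far above all 8 others. These values rest on 3022 to 3497 reads per library at 10 mM glc, 133 to 157 with acetate and 146 to 182 at 1 mM glc. In one fit of all genes with edgeR's quasi-likelihood test, with p-values adjusted across all 14416 tested genes by the Benjamini-Hochberg method and a call meaning an adjusted p below 0.05, TXNIP rose 18.3-fold at 10 mM over 1 mM glc (log2 fold change 4.19 ± 0.08, SE, adjusted p = 9.42e-15). It ranked 4 of 14416 from the highest log2 fold change there. Against acetate it rose 22.0-fold (4.46 ± 0.08, adjusted p = 8.6e-15) and ranked 1 of 14416. In RNA pooled from a culture, fewer cells with a transcript and less of it per cell cannot be told apart.

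ARRDC4, a relative of TXNIP likewise linked to glucose transporter removal, moved the same way by less. It had 6.23, 5.63, 5.72 and 5.89 CPM at 10 mM glc, 1.63, 2.29, 1.93 and 1.81 CPM with acetate, and 2.00, 2.01, 2.30 and 1.79 CPM at 1 mM glc. The 10 mM libraries did not overlap the others, and the other 2 groups covered each other. The counts behind the low groups were small, 44 to 60 reads per library with acetate and 44 to 59 at 1 mM glc, against 155 to 162 at 10 mM glc. ARRDC4 rose 2.89-fold at 10 mM over 1 mM glc (log2 1.53 ± 0.11, SE, edgeR adjusted p = 1.47e-08) and 3.06-fold over acetate (1.61 ± 0.11, adjusted p = 1.12e-08). It ranked 316 and 147 of 14416 from the highest log2 fold change.

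**Figure D1:**
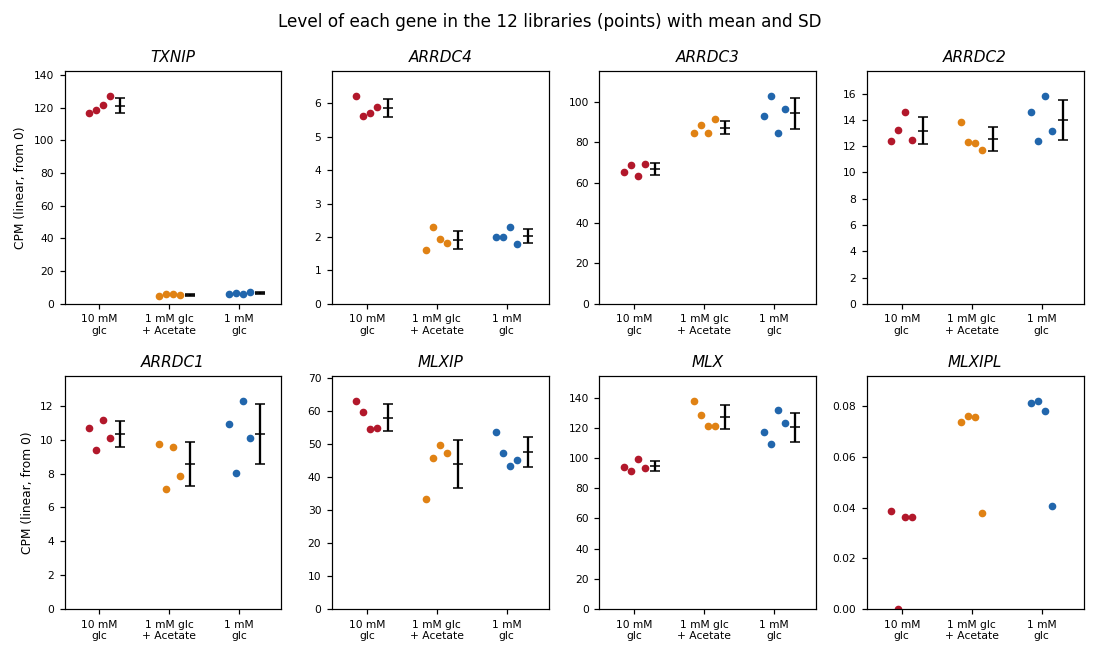
CPM of each gene (y axes linear from 0, scaled per panel) in the libraries at 10 mM glc, 1 mM glc + Acetate and 1 mM glc, left to right; points are the 4 libraries of a group and the bar beside them is mean and SD, left out for MLXIPL. TXNIP sits at 117 to 127 CPM in the 10 mM libraries and under 7.5 CPM in all others, and MLXIPL is at 0 to 2 reads in every library.

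The ratio between TXNIP and ARRDC4 within a library, in which scaling cancels, differed with glucose. Its log2 was 4.21, 4.38, 4.39 and 4.41 at 10 mM glc, 1.55, 1.28, 1.58 and 1.56 with acetate and 1.54, 1.73, 1.42 and 2.00 at 1 mM glc. The 10 mM libraries did not overlap either other group, and those 2 overlapped. The mean log2 ratio was 2.68 higher at 10 mM than at 1 mM glc and 2.86 higher than with acetate, each with an exact two-sided permutation p = 0.0286, the smallest that 4 against 4 libraries allow (0.0429 after Benjamini-Hochberg adjustment over 6 ratio tests). Acetate and 1 mM glc differed by −0.18 in this ratio (exact permutation p = 0.314, adjusted 0.377). With 1 library left out no p under 0.0571 can be had from 4 against 3, and the differences stayed within 2.59 to 2.79 and 2.79 to 2.90.

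ARRDC3, an adaptor that brings NEDD4-family ligases to membrane proteins, went the opposite way. It had 65.4, 68.9, 63.5 and 69.5 CPM at 10 mM glc, 84.7, 88.7, 84.6 and 91.5 CPM with acetate, and 93.1, 103, 84.7 and 96.5 CPM at 1 mM glc. Every 10 mM library was below every other library, and the lowest 1 mM value, in the replicate that stood apart, fell among the acetate values. ARRDC3 fell by 0.50 ± 0.06 on the log2 scale at 10 mM against 1 mM glc (SE, edgeR adjusted p = 5.06e-06) and by 0.39 ± 0.06 against acetate (adjusted p = 7.31e-05). It averaged 66.8 ± 2.87 CPM at 10 mM glc and 94.4 ± 7.69 CPM at 1 mM glc (SD, n = 4 each). ARRDC3 overlaps the noncoding gene ARRDC3-AS1, which has no row in the count tables, and reads in the overlap cannot be told apart.

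ARRDC1, which recruits the ESCRT protein TSG101 to bud vesicles from the plasma membrane, and ARRDC2, whose role is less well described, did not pass the test between the glucose levels. ARRDC1 had 10.7, 9.40, 11.2 and 10.1 CPM at 10 mM glc, 9.72, 7.10, 9.54 and 7.86 CPM with acetate, and 10.95, 8.05, 12.3 and 10.1 CPM at 1 mM glc. All 3 groups overlapped, and the log2 fold change of 10 mM over 1 mM glc was −0.00 ± 0.12 (SE, edgeR adjusted p = 0.977). Its value of 0.27 ± 0.13 at 10 mM over acetate (adjusted p = 0.0746) became a call in 7 of 21 alternative analyses, among them without acetate replicate 1 (0.0376) and without both libraries that stood apart (0.00844). The counting strand is not given, so reads of ARRDC1 and its antisense neighbour ARRDC1-AS1 (row C9orf37), which averaged 13.6 ± 1.07 CPM at 10 mM glc and 12.9 ± 1.19 CPM at 1 mM glc, cannot be told apart.

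ARRDC2 had 12.4, 13.2, 14.6 and 12.4 CPM at 10 mM glc, 13.8, 12.3, 12.3 and 11.7 CPM with acetate, and 14.6, 12.4, 15.8 and 13.2 CPM at 1 mM glc. The groups overlapped throughout. Its log2 fold change was −0.09 ± 0.09 at 10 mM over 1 mM glc (SE, edgeR adjusted p = 0.382), and 0.05 when scaled by library totals, a scaling that moved the median of all genes by 0.14 in that comparison.

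Compared per transcript length, TXNIP was the first of the 5 arrestin-domain genes at 10 mM glc, and ARRDC3 was the first in both other groups. TXNIP held 58.6 ± 0.717% of the summed CPM per kilobase of the 5 genes at 10 mM glc, 5.602 ± 0.482% with acetate and 6.05 ± 0.569% at 1 mM glc (SD, n = 4 each). ARRDC3 held 22.6 ± 0.946% at 10 mM glc, 62.1 ± 2.64% with acetate and 60.2 ± 4.57% at 1 mM glc. The sum itself was 70.6 ± 1.79 CPM per kilobase at 10 mM glc, 33.6 ± 0.379 with acetate and 37.4 ± 0.288 at 1 mM glc. These are descriptions of the same counts, with no test.

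At 10 mM glc the order of levels per kilobase among all 8 genes was TXNIP (41.4), MLX (36.5), ARRDC3 (16.0), MLXIP (6.89), ARRDC1 (6.51), ARRDC2 (5.26), ARRDC4 (1.44) and MLXIPL (0.0085 CPM per kilobase), in which MLXIP and ARRDC1 overlapped. With acetate MLX (49.2) and ARRDC3 (20.9) came first, then ARRDC1 (5.39), MLXIP (5.22) and ARRDC2 (5.00), which overlapped, then TXNIP (1.88), ARRDC4 (0.470) and MLXIPL (0.0201). At 1 mM glc the order was the same, with MLX at 46.5, ARRDC3 at 22.5, ARRDC1 at 6.53, MLXIP at 5.63, ARRDC2 at 5.59, TXNIP at 2.26, ARRDC4 at 0.497 and MLXIPL at 0.0215. TXNIP was thus first at 10 mM glc and sixth in the other 2 groups, and ARRDC4 was seventh in all 3.

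**Figure D2:**
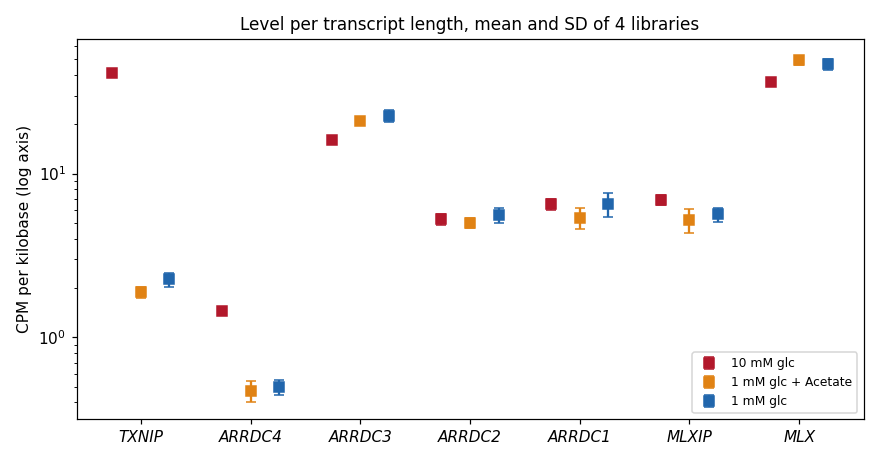
Level per transcript length (y axis, CPM per kilobase, log axis) of the 7 tested genes; squares are group means and bars SD of 4 libraries, in the order 10 mM glc, 1 mM glc + Acetate and 1 mM glc for each gene. TXNIP goes with MLX at the top at 10 mM glc and lies between ARRDC2 and ARRDC4 in the other groups.

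MLXIP, which encodes MondoA, was somewhat higher at 10 mM glc. It had 63.1, 59.7, 54.6 and 54.9 CPM at 10 mM glc, 33.4, 45.6, 49.7 and 47.3 CPM with acetate, and 53.8, 47.4, 43.4 and 45.3 CPM at 1 mM glc. The 10 mM libraries lay above all others, by a narrow margin over 1 mM replicate 1, and the lowest value was that of the acetate library that stood apart. MLXIP rose 1.22-fold over 1 mM glc (log2 0.29 ± 0.11, SE, edgeR adjusted p = 0.0254) and 1.32-fold over acetate (0.40 ± 0.11, adjusted p = 0.00437). Over all 21 alternatives the adjusted p against 1 mM glc ran from 0.00143 to 0.384, and the first call was lost in 7 of them. It ended without 10 mM replicate 1 (0.0774) or 2 (0.0571) or without 1 mM replicate 3 (0.0574) or 4 (0.0667), and with the trend over transcript length and GC content removed its log2 fold change was 0.06 (adjusted p = 0.318). Its transcript, 8427 bases, was the longest of the 8, and without both libraries that stood apart the log2 fold change was 0.25 (adjusted p = 0.00143). The call against acetate held in all 21 alternatives, with log2 fold changes of 0.20 to 0.50.

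MLX, the shared dimer partner of MondoA and ChREBP, was lower at 10 mM glc. It had 94.0, 91.4, 99.2 and 93.3 CPM at 10 mM glc, 138, 128, 121 and 121 CPM with acetate, and 117, 109, 132 and 123 CPM at 1 mM glc. The 10 mM libraries lay below all others, and the 2 low glucose groups overlapped. MLX fell by 0.35 ± 0.06 on the log2 scale against 1 mM glc (SE, edgeR adjusted p = 0.000192) and by 0.43 ± 0.06 against acetate (adjusted p = 3.35e-05), and both calls held in all 21 alternatives. MLX overlaps PSMC3IP, and reads in the overlap cannot be told apart. The log2 fold change of PSMC3IP at 10 mM over 1 mM glc was −0.11 ± 0.08 (SE, edgeR adjusted p = 0.23). Over acetate it was −0.16 ± 0.08 (adjusted p = 0.0802), with every 10 mM library below every acetate library. The other MLX transcripts had 99.9% and 99.6% of the total of the transcript used, so isoforms could not be separated.

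The log2 ratio of MLXIP to MLX within a library was −0.58, −0.61, −0.86 and −0.76 at 10 mM glc, −2.04, −1.49, −1.29 and −1.36 with acetate, and −1.12, −1.204, −1.60 and −1.44 at 1 mM glc. The 10 mM libraries lay above all others, and within each low glucose group the lowest ratio was that of the library that stood apart. The mean log2 ratio was 0.64 higher at 10 mM than at 1 mM glc and 0.84 higher than with acetate, each with an exact two-sided permutation p = 0.0286, the smallest possible here (adjusted 0.0429). Between acetate and 1 mM glc the difference was −0.20 (exact permutation p = 0.429, adjusted 0.429). Scaling cancels in this ratio, but a trend over transcript length does not, as MLXIP has 8427 bases and MLX 2586. No ratio was taken with the length and GC trend removed. In the fit with it removed, the log2 fold changes at 10 mM over 1 mM glc were 0.06 for MLXIP and −0.33 for MLX. Per kilobase there was 5.33 ± 0.495 times as much MLX as MLXIP at 10 mM glc, 9.73 ± 2.52 times with acetate and 8.34 ± 1.28 times at 1 mM glc (SD, n = 4 each).

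MLXIPL, which encodes ChREBP, the form best known from liver and fat, was at the limit of detection. It had 1, 0, 1 and 1 reads at 10 mM glc, 2, 2, 2 and 1 with acetate, and 2, 2, 2 and 1 at 1 mM glc. All 12 libraries were under the 3 counts that a count of 0 allows, so it was not tested and no fold is given.

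**Figure D3:**
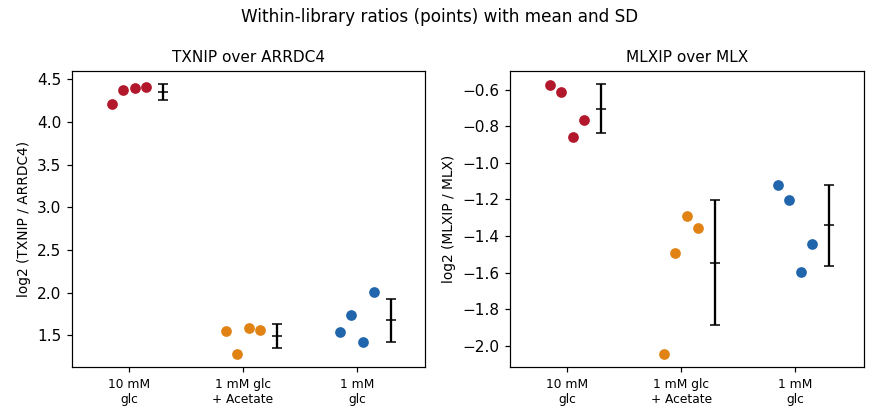
Log2 ratio within each library (y axes) of TXNIP to ARRDC4 (left) and of MLXIP to MLX (right) at 10 mM glc, 1 mM glc + Acetate and 1 mM glc; points are libraries and bars mean and SD. Both ratios are higher in every 10 mM library than in any other, and the lowest MLXIP to MLX ratio, −2.04, is acetate replicate 1.

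At 10 mM against 1 mM glc 5 of the 7 tested members were called, TXNIP, ARRDC4 and MLXIP higher and ARRDC3 and MLX lower, and the same 5 had groups that did not overlap. Of all genes tested 67.5% were called in this comparison (33.7% higher and 33.8% lower) and in 61.5% the groups did not overlap, so the members' count is near the background. With library totals in place of TMM 63.3% of all calls were higher in place of 49.9%, and the directions of the 5 members stayed. Their median log2 fold change was −0.00, and that of all genes tested 0.00. At 10 mM glc against acetate the same 5 of 7 were called in the same directions, with a background of 62.8% called (31% higher, 31.8% lower) and 61% not overlapping. These comparisons share the 10 mM libraries. In size, TXNIP and ARRDC4 had log2 fold changes of 4.19 and 1.53 at 10 mM over 1 mM glc where the median size over all genes tested was 0.38.

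With acetate against 1 mM glc 1 of the 7, TXNIP, was called, lower, against 13.7% of all genes (6.65% higher and 7.09% lower), and groups did not overlap in 1 member and in 15.6% of genes. TXNIP averaged 5.51 ± 0.437 CPM with acetate and 6.63 ± 0.652 CPM at 1 mM glc (SD, n = 4 each), a log2 fold change of −0.27 ± 0.08 (SE, edgeR adjusted p = 0.0495). The highest acetate value and the lowest 1 mM value both round to 5.94 CPM, so the groups only just failed to overlap. Over all 21 alternatives the adjusted p ran from 0.0139 to 0.155 and the log2 fold change from −0.32 to −0.21. The call was lost in 11 of them. Leaving out any acetate library ended it, with replicates 1 to 4 giving 0.0902, 0.082, 0.0534 and 0.11, as did leaving out 1 mM replicate 2 (0.0822) or 4 (0.151).

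None of the other 6 tested members passed the test for acetate, whose log2 fold changes ran from −0.28 for ARRDC1 to 0.08 for MLX. ARRDC4 had −0.08 ± 0.13 (SE, edgeR adjusted p = 0.732), ARRDC1 −0.28 ± 0.13 (0.171, and 0.0363 without 1 mM replicate 2), ARRDC2 −0.16 ± 0.09 (0.246), MLXIP −0.11 ± 0.11 (0.54) and MLX 0.08 ± 0.06 (0.434). ARRDC3 had −0.11 ± 0.06 (0.259), with −0.14 (0.0496) when both libraries that stood apart were left out and −0.16 (0.000781) with the length and GC trend removed.

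**Figure D4:**
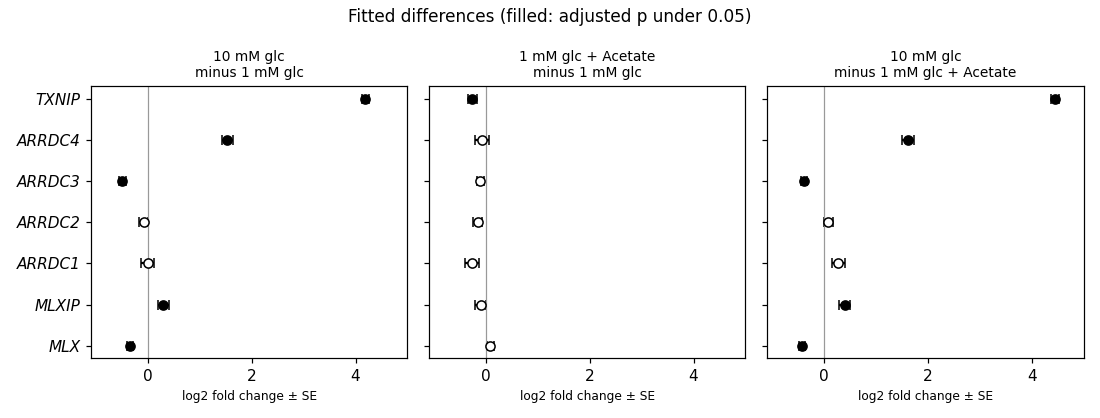
Log2 fold change (x axes, the same scale in each panel) with SE of the 7 tested genes for 10 mM glc minus 1 mM glc, 1 mM glc + Acetate minus 1 mM glc, and 10 mM glc minus 1 mM glc + Acetate; filled points have an edgeR adjusted p under 0.05. TXNIP is at 4.19, −0.27 and 4.46, and in the acetate panel every gene lies within 0.3 of 0.

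**Figure D5:**
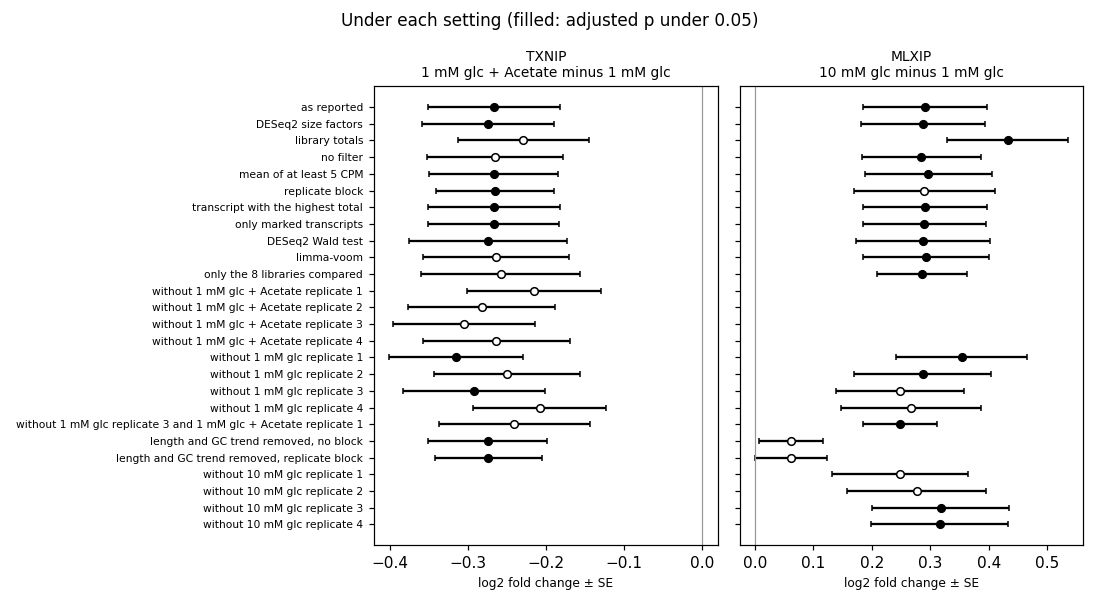
Log2 fold change with SE (x axes) under each setting (rows) for TXNIP, acetate minus 1 mM glc (left), and MLXIP, 10 mM glc minus 1 mM glc (right); filled points have an adjusted p under 0.05. TXNIP stays between −0.32 and −0.21, and MLXIP is near 0.06 where the length and GC trend is removed.

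Other genes linked to MondoA and ChREBP were called in both directions. The counts over this and the later lists were not tested against those of all genes. Over all genes tested, 67.5% were called at 10 mM against 1 mM glc (33.7% higher, 33.8% lower). For acetate the shares were 13.7% (6.65% higher, 7.09% lower). The target list held 23 symbols, in which DAK and TKFC name the same gene, and 18 were tested. At 10 mM against 1 mM glc 8 rose and 7 fell, or 8 and 4 when scaled by library totals. The median log2 fold change of the list was 0.01, and that of all genes 0.00. Those that rose were the lipid synthesis genes FASN, ACACA, ACLY, SCD and ELOVL6, the glycolysis genes PFKFB3 and GPI, and BHLHE40, and those that fell were RGS16, SLC2A1, HK2, KLF10, G6PC3, TKT and DAK. The fatty acid elongase ELOVL6 averaged 60.1 ± 1.23 CPM at 10 mM glc and 31.6 ± 1.91 CPM at 1 mM glc (SD, n = 4, log2 fold change 0.93 ± 0.05, SE, edgeR adjusted p = 9.13e-10). The signalling inhibitor RGS16 fell by 1.15 ± 0.08 and the glucose transporter SLC2A1 fell by 0.93 ± 0.06 on the log2 scale. The hexokinase HK2 fell by 1.16 ± 0.08 and the zinc finger repressor KLF10 fell by 0.37 ± 0.06. HK2 averaged 127 ± 1.43 CPM at 10 mM glc, 227 ± 16.8 CPM with acetate and 284 ± 34.9 CPM at 1 mM glc (SD, n = 4 each). With acetate 0 of the 18 rose by edgeR (1 at an unadjusted p under 0.05, 0 by DESeq2 and 0 by limma-voom) and 6 fell, namely KLF10 (−0.23), RGS16 (−0.60), HK2 (−0.32), SLC2A1 (−0.36), PFKFB3 and BHLHE40, with a median of −0.05. The KLF10 call for acetate (adjusted p = 0.0251, 0.106 at most over the alternatives) ended without acetate replicate 2 (0.0681) or 4 (0.0684) or 1 mM replicate 1 (0.0821) or 4 (0.0566). That of HK2 (0.016, 0.0756 at most) ended without 1 mM replicate 1 (0.0594), which left 3 of the 18 called lower.

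Of 9 tested genes of the wider MLX and MAX network 2 rose and 5 fell at 10 mM over 1 mM glc (median log2 fold change −0.35), and 4 rose and 5 fell with library totals. With TMM the share called over all genes was 67.5% (33.7% higher, 33.8% lower), so the total called is near the background. The split between higher and lower in this list was not tested. MXD1, a repressor that dimerizes with MAX and with MLX, averaged 7.63 ± 0.618 CPM at 10 mM glc and 152 ± 23.2 CPM at 1 mM glc (SD, n = 4 each, log2 −4.32 ± 0.11, SE, edgeR adjusted p = 3.44e-13). MYC fell by 2.66 ± 0.06 on the log2 scale while its relative MYCN rose by 2.76 ± 0.13. MYCN averaged 21.0 ± 0.613 CPM at 10 mM glc and 3.09 ± 0.687 CPM at 1 mM glc. With acetate 1 rose and 2 fell, MXD1 by 0.84 and MYC by 0.41 on the log2 scale.

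In the thioredoxin system, whose thioredoxin is the protein that TXNIP binds, 1 of 11 tested genes rose and 6 fell at 10 mM over 1 mM glc (median −0.29), or 3 and 5 with library totals. The share called over all genes was 67.5% with TMM (33.7% higher, 33.8% lower), so the total called is near the background. More of the list fell than rose, and that split was not tested. The reductase TXNRD1 averaged 303 ± 4.61 CPM at 10 mM glc, 647 ± 15.5 CPM with acetate and 840 ± 93.8 CPM at 1 mM glc (SD, n = 4 each), and fell by 1.47 ± 0.07 on the log2 scale at 10 mM over 1 mM glc (SE, edgeR adjusted p = 1.55e-10). Thioredoxin itself, TXN, averaged 139 ± 7.94 CPM at 10 mM glc, 184 ± 24.3 CPM with acetate and 212 ± 20.4 CPM at 1 mM glc, and fell by 0.61 ± 0.09 at 10 mM over 1 mM glc (adjusted p = 2.51e-05). The peroxiredoxin PRDX5 fell by 0.78 ± 0.10 and the mitochondrial PRDX3 rose by 0.44 ± 0.06. With acetate 0 rose by edgeR (0 at an unadjusted p under 0.05, and 0 by DESeq2 and by limma-voom) and 2 fell, TXNRD1 by 0.38 ± 0.07 (adjusted p = 0.0024) and PRDX1. TXN had −0.20 ± 0.09 with acetate (adjusted p = 0.147), and −0.30 without acetate replicate 1 (0.0127). TXN and TXNRD1 were lower at 10 mM glc, where TXNIP was higher, and a link to TXNIP was not tested.

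Of 9 NEDD4-family ligases, which alpha-arrestins bind through their PPxY motifs, 1 rose and 5 fell at 10 mM over 1 mM glc (median −0.22), or 1 and 2 with library totals. Here too 67.5% of all genes were called with TMM. WWP2 rose to 175 ± 5.87 CPM at 10 mM glc, against 67.9 ± 0.83 CPM at 1 mM glc (SD, n = 4 each, log2 1.37 ± 0.05, SE, edgeR adjusted p = 5.34e-12), while SMURF2 fell by 1.26 ± 0.07 and NEDD4L by 0.77 ± 0.06. With acetate WWP2 rose by 0.25 ± 0.05 and 0 fell by edgeR (3 at an unadjusted p under 0.05, 1 by DESeq2 and 0 by limma-voom), a count of lower genes that ran up to 7 in the alternatives. SLC2A3, a glucose transporter gene of the list of known alpha-arrestin cargo and budding partners, had 18.3 ± 1.251 CPM at 10 mM glc, 36.2 ± 1.91 CPM with acetate and 57.0 ± 6.63 CPM at 1 mM glc (SD, n = 4 each). It fell by 1.64 ± 0.08 on the log2 scale at 10 mM against 1 mM glc (SE, edgeR adjusted p = 3.39e-10) and by 0.65 ± 0.08 with acetate (adjusted p = 0.000149). The list went both ways at 10 mM over 1 mM glc, with NOTCH1 higher and SLC2A1 and TSG101 lower.

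Among 5 tested genes of other arrestin-fold proteins 2 rose and 1 fell at 10 mM over 1 mM glc (median −0.04), where 67.5% of all genes were called. The beta-arrestin ARRB1 averaged 5.78 ± 0.401 CPM at 10 mM glc, 3.46 ± 0.223 CPM with acetate and 1.90 ± 0.557 CPM at 1 mM glc (SD, n = 4 each), higher by 1.60 ± 0.15 on the log2 scale at 10 mM over 1 mM glc (SE, edgeR adjusted p = 1.84e-07). The retromer subunits VPS26B and VPS26A had 0.32 ± 0.05 and −0.31 ± 0.06. With acetate ARRB1 rose and 0 fell by edgeR (1 at an unadjusted p under 0.05, and 0 by DESeq2 and by limma-voom). Of the 7 genes for 14-3-3 proteins, which bind MondoA and ChREBP, 2 rose and 2 fell at 10 mM over 1 mM glc (median 0.03), or 4 and 1 with library totals, among them YWHAH (0.38 ± 0.06), YWHAQ (0.37 ± 0.06) and YWHAZ (−0.24 ± 0.05), whose call was lost with library totals (adjusted p = 0.111). With acetate 0 of 7 rose and 0 fell by edgeR, DESeq2 or limma-voom, with 0 higher and 2 lower at an unadjusted p under 0.05.

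Likeness of pattern was measured as the root mean square difference over the 12 libraries between log2 CPM profiles, each minus its own mean, among genes averaging at least 5 CPM outside the 8. For TXNIP, whose own profile had a root mean square of 2.04, the closest were the Hedgehog receptor gene PTCH1 at 0.79, RGMA at 0.80 and the transcription factor gene ATOH8 at 0.86, which had smaller glucose differences (log2 fold changes 3.02, 2.67 and 3.14 at 10 mM over 1 mM glc). With acetate, where TXNIP was lower, ATOH8 (0.73) and PTCH1 (0.47) were called higher and RGMA was at −0.06. The PTCH1 call was lost in 6 of 21 alternatives. ARRDC4, with a root mean square of 0.74, was most like KIFC1, a mitotic kinesin, at 0.11, C1orf183 at 0.13 and GAL3ST4 at 0.14. For ARRDC3 (0.22) the closest were PRMT3, COPB1 and MAPK6 at 0.030, 0.031 and 0.035. For MLX (0.20) they were DHODH, ESD and METTL17 at 0.039, 0.041 and 0.042, and for MLXIP (0.23) the row named MIR3940, POM121 and WDR81 at 0.040, 0.052 and 0.057. POM121 has near-identical copies, so its level is uncertain. The calls of DHODH and METTL17 at 10 mM over 1 mM glc were lost with library totals, and that of WDR81 with the length and GC trend removed (adjusted p = 0.125), as that of MLXIP was.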

How the data were processed

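The authors deposited raw read counts for 34917 RefSeq transcripts in each of 12 libraries, as whole numbers with no normalization, and the build is hg19 per the submitters' processing notes. The aligner, counter and strand setting were not given in the sources used here. RNA was extracted with Trizol and libraries followed standard Illumina protocols, per the labels. The transcript that the authors marked stood for its gene (20895 genes), and otherwise the one with the highest total (1362 genes); reads were counted again in overlapping transcripts of a gene, so these were not summed. No 2 libraries were identical.

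All 12 libraries entered a single quasi-likelihood fit (edgeR 4.0.16 under R 4.3.3) with a mean per group, after filterByExpr and TMM, adjusted by Benjamini-Hochberg over 14416 genes. SE comes from the F statistic, and the common biological coefficient of variation was 8.51%. Intervals and floors of counts cover counting error only, and depth ran from 24.4 M to 27.2 M. Ratios used a prior count of 2 and exact two-sided permutation tests over libraries (scipy 1.17.1). CPM per kilobase used transcript lengths of GENCODE v29. The procedure was tested on simulated data.

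The members and lists were chosen with earlier results of these data known. Named outside the members were the called genes of each list with the smallest adjusted p for glucose (at most 3 a list), HK2, SLC2A1, KLF10, TXN and TXNRD1, and the 3 genes most like each member called for glucose; PFKFB3, BHLHE40, PRDX1 and other list members without values complete a count. C9orf37, PSMC3IP and ARRDC3-AS1 were named as overlapping genes. The counts of the cargo and budding list and 1 of its genes are not reported here.

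Alternatives were DESeq2 1.42.0 size factors and Wald test, library totals, limma-voom (limma 3.58.1), no filter, a mean of at least 5 CPM, a fit of only the 8 libraries compared, a block on replicate number, the transcript with the highest total, each library left out in turn, the 2 libraries that stood apart left out, and removal, with or without that block, of a spline (5 degrees of freedom) of each library on the length and GC content of transcripts. Only marked transcripts were added after the data were seen. With 1 library left out, the spread was pooled over all groups.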

Additional observations from a re-analysis of the deposited data

Results flagged for a closer look

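MLXIPL was the single member with a library far from the others of its group, in each of the 3 groups. Its level was 0 CPM in 10 mM glc replicate 2, 0.0378 CPM in 1 mM glc + Acetate replicate 4 and 0.0408 CPM in 1 mM glc replicate 4, against 0.0364 to 0.0387, 0.0739 to 0.0763 and 0.0780 to 0.0821 CPM in the other libraries of those groups. The gaps between these libraries are gaps of 1 read. Of 24 groups of 4 libraries examined, chance alone would set about 1 in 20 apart in this way. That rate does not apply to a gene with so few reads, where a gap of 1 read sets a library apart.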

How the results depend on the processing

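The glucose calls of TXNIP, ARRDC3 and MLX, against 1 mM glc and against acetate, held in all 21 alternatives run for each, and those of ARRDC4 in all 20, since a mean of at least 5 CPM removed it. MLXIP against 1 mM glc and TXNIP with acetate did not hold, as given with their values above. For acetate against 1 mM glc the count of members called was 0 with library totals, with no filter, with limma-voom and with only the 8 libraries compared, 2 with the length and GC trend removed, 3 with that and the replicate block, and 0 to 1 with 1 library left out, in place of 1. Over all genes the count called for acetate was 1056 with only the 8 libraries compared, 3728 without the 2 libraries that stood apart, 3956 with the length and GC trend removed, 3582 with that and the block, and 1196 to 2956 with 1 library left out, in place of 1980. Those counts depend on these settings, and the cause was not tested. With library totals 65.2% of all calls for acetate and 60.8% of those at 10 mM glc over acetate were higher, in place of 48.4% and 49.4%. Counts over lists that moved by 4 genes or more were 1 to 5 thioredoxin genes higher, 4 to 8 MondoA and ChREBP targets lower and 2 to 6 NEDD4-family genes lower at 10 mM over 1 mM glc, 4 to 9 such targets and 2 to 6 NEDD4-family genes lower at 10 mM over acetate, and 0 to 7 NEDD4-family genes lower for acetate.

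With 1 library left out no ratio could pass its test, and the mean log2 differences were 2.59 to 2.79 and 2.79 to 2.90 for TXNIP to ARRDC4 at 10 mM over 1 mM glc and over acetate, and 0.553 to 0.712 and 0.675 to 0.926 for MLXIP to MLX. Directions turned for values near 0 that were called in no setting. The log2 fold change of ARRDC1 at 10 mM over 1 mM glc was 0.14 with library totals, 0.0019 at a mean of at least 5 CPM, 0.0063 with the replicate block, 0.0079 with limma-voom, 0.088 without the 2 libraries, 0.059 and 0.064 with the length and GC trend removed, without and with the block, and −0.11 to 0.088 with 1 library left out. ARRDC2 had 0.053 there with library totals, MLXIP −0.17 to 0.0028 for acetate with 1 library left out (0.0028 without acetate replicate 1), and ARRDC4 0.056 for acetate without the 2 libraries and −0.18 to −0.012 with 1 left out.

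Replicate numbers were shared by the groups. Between 10 mM and 1 mM glc, libraries with the same number had correlations of their deviations of 0.064 to 0.27. Each was the highest that its 10 mM library had with any 1 mM library. The range was −0.365 to 0.128 between acetate and 1 mM glc, and −0.114 to 0.0245 between 10 mM glc and acetate. Whether the numbers mark pairs cannot be told from these values. With the replicate block 2 members were called for acetate, TXNIP and ARRDC1 (adjusted p = 0.0438), and MLXIP lost its call against 1 mM glc (0.0538). Depth limits MLXIPL, at 0 to 2 reads, and ARRDC4, at 44 to 60 reads per library in the low glucose groups.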
